A study of Mus musculus with 12 samples.

Results

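Alcohol and aldehyde dehydrogenases are the enzymes that oxidise alcohols to aldehydes and aldehydes to acids in the liver. Their transcripts were followed through 10 genes, Adh1, Adh4, Adh5, Aldh1a1, Aldh1a7, Aldh1b1, Aldh1l1, Aldh2, Aldh3a2 and Aldh4a1, taken by symbol from the 13267 genes of the deposited table. All 10 were in the table and all 10 passed the filter on low values, as did 12720 genes in all. The rule took rows by gene symbol, and the list of symbols was chosen with earlier results of these data known. Each row carries an Ensembl transcript ID, which was read here as a label for the whole gene. For Adh1 this ID is of a retained-intron transcript, for Adh5 and Aldh1l1 of nonsense-mediated decay transcripts. For Aldh1a1 and Aldh4a1 it is of processed transcripts without a coding label. Whether a value counts the whole gene was not tested.

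Liver mRNA was sequenced from 12 C57BL/6 mice that had been made obese and steatotic on a high-fat diet (HFD). In 6 of them a subcutaneous pellet delivered 4-hydroxyphenylacetic acid (4-HPAA), a small phenolic acid and gut microbial product, and the other 6 carried the scaffold control pellet. Both groups thus shared the strain, the diet and the fatty liver, and livers were flushed with saline and frozen at necropsy after 6 weeks of treatment. The labels do not say whether the livers of a group came from separate cages or days, so the p-values reflect how much these 12 samples spread and may miss other variation.

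Each value is an authors' read count scaled by library and rounded, called a normalised read count here, and the values of a library summed to between 22869813 and 25255447. The liver label held. Hepatocyte markers, 7 of 8 in the table, summed to between 1981470 and 2616850 normalised reads in 4-HPAA livers. In control livers they summed to between 2319888 and 2841993. Most of each sum was Alb, which was lower with 4-HPAA (log2 difference −0.38, limma, adjusted p = 0.148). Of the 7 markers, 4 were higher and 3 lower on average. None of the 3 muscle markers was in the table. Stellate cell markers summed to between 3852 and 7433 in 4-HPAA livers and between 6140 and 9095 in control livers. All 7 of 7 were lower on average with 4-HPAA, with a median log2 difference of −0.57. At an unadjusted limma p under 0.05, 5 were called (71.4%, beside 14.8% of all genes tested), and 0 passed adjustment. Of the endothelial markers, 5 of 6 were lower, with a median log2 difference of −0.25, and the adipocyte marker Cfd, the only one of 4 in the table, had 20 to 450 normalised reads with 4-HPAA and 205 to 1133 in control livers. The sums of the stellate, endothelial, macrophage and cholangiocyte lists all overlapped between the groups, and their part in the results was not tested. In whole tissue, fewer cells of a type and less RNA per cell cannot be told apart. The livers of 4-HPAA replicate 3 and control replicate 6 stood apart in several of the genes described here, and their values are given where they bear on a result.

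As background, ethanol and retinol are oxidised by cytosolic alcohol dehydrogenases to acetaldehyde and retinaldehyde, which aldehyde dehydrogenases of the cytosol and mitochondria turn into acetate and retinoic acid. Other members of the same families clear formaldehyde, fatty aldehydes and lipid peroxidation products, or close steps of folate and proline breakdown. Hepatocytes carry most of this capacity, which is why alcohol dehydrogenase is a classical liver enzyme. The same enzyme family acts on the phenolic aldehydes that arise from tyramine and dopamine, whose acid products include phenylacetic acids.

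The genes lie in a few places of the mouse genome (GRCm38, GENCODE M21). Adh1 (chr3:138260991-138290698), Adh4 (chr3:138415466-138430892) and Adh5 (chr3:138443093-138455499) stand in 1 cluster on the plus strand. Aldh1a1 (chr19:20492715-20643465, plus strand) and Aldh1a7 (chr19:20692953-20727562, minus strand) are neighbours on opposite strands. Aldh1b1 (chr4:45799022-45804604) and Aldh4a1 (chr4:139622866-139649690) lie far apart on the plus strand of the same chromosome. Aldh1l1 (chr6:90486427-90600203) is on the plus strand, and Aldh2 (chr5:121566027-121593824) and Aldh3a2 (chr11:61223417-61267464) are on the minus strand.

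Aldh1a1 and Aldh1a7 are near copies, which bears on how their reads can be assigned. Their coding sequences, both 1503 bases long in the GENCODE principal transcripts, were identical at 1377 positions (91.6%), and 151 of 1454 windows of 50 bases in Aldh1a7 (10.4%) occurred unchanged in Aldh1a1. A read inside such a window fits both genes, so the values of this pair are uncertain. The likeness extends in front of the genes, which is why the 250 bases before a RefSeq-annotated start of each (GRCm38.p6) are shown. The last 100 bases before the starts were identical at 94 positions (94%). Capitals mark the longest run that both share, 65 bases beginning at position −94 in each, counted back from −1 at the last base before the start. The Aldh1a1 sequence is chr19:20601718-20601967 on the plus strand, from the later of its 2 listed starts, and the Aldh1a7 sequence is chr19:20727557-20727806 on the minus strand.
Aldh1a1: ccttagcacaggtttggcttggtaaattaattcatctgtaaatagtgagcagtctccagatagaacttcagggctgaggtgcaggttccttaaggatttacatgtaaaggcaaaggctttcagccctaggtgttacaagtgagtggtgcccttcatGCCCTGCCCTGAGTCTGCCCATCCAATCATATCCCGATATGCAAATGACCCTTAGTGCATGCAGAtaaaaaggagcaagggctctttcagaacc
Aldh1a7: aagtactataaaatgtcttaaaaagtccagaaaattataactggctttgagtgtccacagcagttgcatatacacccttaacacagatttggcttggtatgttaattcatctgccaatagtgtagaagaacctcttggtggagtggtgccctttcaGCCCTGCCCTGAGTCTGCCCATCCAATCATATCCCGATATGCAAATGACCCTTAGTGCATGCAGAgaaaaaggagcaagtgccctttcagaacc

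Aldh3a2 and Aldh1l1, the members with the smallest p-values in each direction (lower and higher with 4-HPAA), are shown next, by the same 250 bases. Capitals in their sequences mark the matches, on either strand, to 5 motifs that were searched: the nuclear receptor core AGGTCA, the CCAAT box, the TATA box as TATAAA, the GC box as GGGCGG and the E-box as CACGTG. Aldh3a2 (chr11:61267187-61267436, minus strand) held GGGCGG at −47, CACGTG at −30 and CCAAT at −13. Aldh1l1 (chr6:90550543-90550792, plus strand) held AGGTCA at −178, CCAAT at −103 and −63, all 3 read on the opposite strand, and GGGCGG at −45.
Aldh3a2: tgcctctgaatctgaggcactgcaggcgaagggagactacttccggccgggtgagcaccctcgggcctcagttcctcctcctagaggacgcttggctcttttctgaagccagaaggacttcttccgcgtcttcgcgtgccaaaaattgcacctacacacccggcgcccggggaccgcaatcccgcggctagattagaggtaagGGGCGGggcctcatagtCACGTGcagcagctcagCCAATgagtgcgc
Aldh1l1: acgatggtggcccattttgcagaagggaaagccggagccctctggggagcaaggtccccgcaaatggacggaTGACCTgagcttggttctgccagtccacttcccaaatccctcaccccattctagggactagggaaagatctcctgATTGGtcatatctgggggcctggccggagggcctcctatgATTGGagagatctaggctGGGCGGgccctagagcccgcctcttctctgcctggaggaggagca

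These matches are letters in a window and not measured sites. Of 32851 mouse promoter windows of the same length, 14.02% held AGGTCA, 33.85% CCAAT, 12.37% TATAAA, 32.74% GGGCGG and 6.02% CACGTG, and the marked matches do not overlap each other. GC content was 61.2% with 18 CpG dinucleotides for Aldh3a2 and 59.6% with 7 for Aldh1l1, beside medians of 52.4% and 6 over all windows. The window before Adh1, the most abundant member, held none of the 5 motifs at 44.8% GC, and that of Adh4 held AGGTCA at −133 and −11 and CCAAT at −90 at 41.6% GC. Of the 2 starts listed for Adh5, the later held GGGCGG at 3 positions, with 63.6% GC and 21 CpG.

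Levels between genes were compared per kilobase of exon. Adh1, the class I enzyme that oxidises ethanol and retinol, was highest with 28187 ± 2749 normalised reads per kilobase in 4-HPAA livers and 29249 ± 2512 in control livers (SD, n = 6 each). Its lowest liver lay above the highest liver of every other member. Aldh2, the mitochondrial enzyme that removes acetaldehyde, followed at 10559 ± 1519 per kilobase with 4-HPAA and 10890 ± 1065 in control livers. Aldh1a1, the cytosolic enzyme that makes retinoic acid, had 8687 ± 1000 with 4-HPAA and 9338 ± 1629 in control livers, and its range overlapped those of Aldh2 and of Aldh1l1. Aldh1l1, cytosolic formyltetrahydrofolate dehydrogenase, had 7632 ± 963 per kilobase with 4-HPAA and 6755 ± 515 in control livers.

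A middle tier held Aldh4a1, Aldh1a7, Aldh3a2, Adh5 and Adh4, with group means between 2182 and 3056 normalised reads per kilobase. Neighbours within this tier did not differ beyond their ranges, and all of it lay below the lowest liver for Aldh1l1. Aldh1b1, a mitochondrial relative of Aldh2, was lowest with 827 ± 135 per kilobase with 4-HPAA and 923.99 ± 256 in control livers. The order moved with the length used. On the length of the transcript listed in the table, which is a fragment for several genes, Aldh2 stood first with 86882 ± 12499 normalised reads per kilobase in 4-HPAA livers and 89600.3 ± 8767 in control livers, above Adh1 at 81424 ± 7942 and 84493 ± 7257 in the same order. On the length of the principal transcript alone, which was tried after the values were seen, Adh1 stayed highest and Aldh1b1 lowest, while Aldh1a1 (18189 ± 2094 with 4-HPAA, 19551 ± 3411 in control livers) stood above Aldh2 (13997 ± 2014 and 14435 ± 1412 in the same order), and Adh5 moved up to 8259 ± 403 with 4-HPAA and 7622 ± 661 in control livers.

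**Figure D1:**
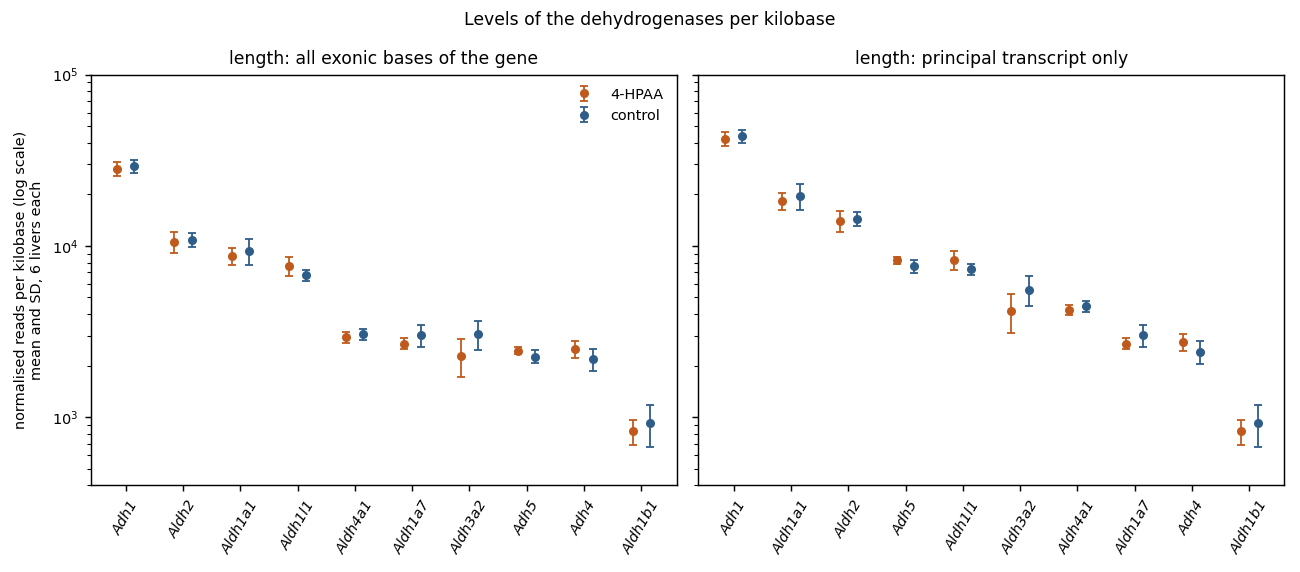
Normalised reads per kilobase of each dehydrogenase (log axis; points are means and bars SD of 6 livers, 4-HPAA left of control within each gene), with all exonic bases as length in the left panel and the principal transcript alone in the right panel. Adh1 is highest and Aldh1b1 lowest in both panels, and the order between them differs.

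Together the 10 genes took 0.988% ± 0.0694 of all values in 4-HPAA livers and 1.04% ± 0.0909 in control livers, with ranges of 0.884% to 1.07% and 0.893% to 1.12% in that order. The 3 alcohol dehydrogenases took 0.321% ± 0.0260 with 4-HPAA and 0.330% ± 0.0202 in control livers. The 7 aldehyde dehydrogenases took 0.667% ± 0.0545 with 4-HPAA and 0.709% ± 0.0736 in control livers. Each of these sums overlapped between the groups.

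None of the 10 dehydrogenases passed the adjusted threshold between 4-HPAA and control livers (limma, Benjamini-Hochberg adjusted p of 0.05 over 12720 genes), and none of all genes tested did either (0%). An exact permutation test for each gene called 0 of all genes as well. Its smallest possible p is 0.00216, which passes adjustment over 12720 genes only if many genes reach it together. This 0 therefore adds little. Limma called 139 genes with sample weights, 193 without 4-HPAA replicate 4 and 5 without control replicate 1, and 0 of the 10 dehydrogenases in each case. At an unadjusted p under 0.05, limma called 1 of the 10, Aldh3a2, which was lower, beside 1886 of all genes tested (14.8%), 7.26% higher and 7.56% lower, so the share of members was near the background. The unadjusted count depended on single livers: it was 3 without 4-HPAA replicate 4 (Aldh3a2, Aldh1l1 and Adh4), 2 without 4-HPAA replicate 6 (Aldh3a2 and Aldh1l1), and 0 without 4-HPAA replicate 1, 2 or 5 or without any of control replicates 1 to 5. In none of the 10 did the groups separate fully, beside 84 of all genes (0.66%). By mean, 3 members were higher with 4-HPAA and 7 lower, with a median log2 difference of −0.06 and a median absolute difference of 0.12, beside −0.000922 and 0.13 over all genes tested.

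**Figure D2:**
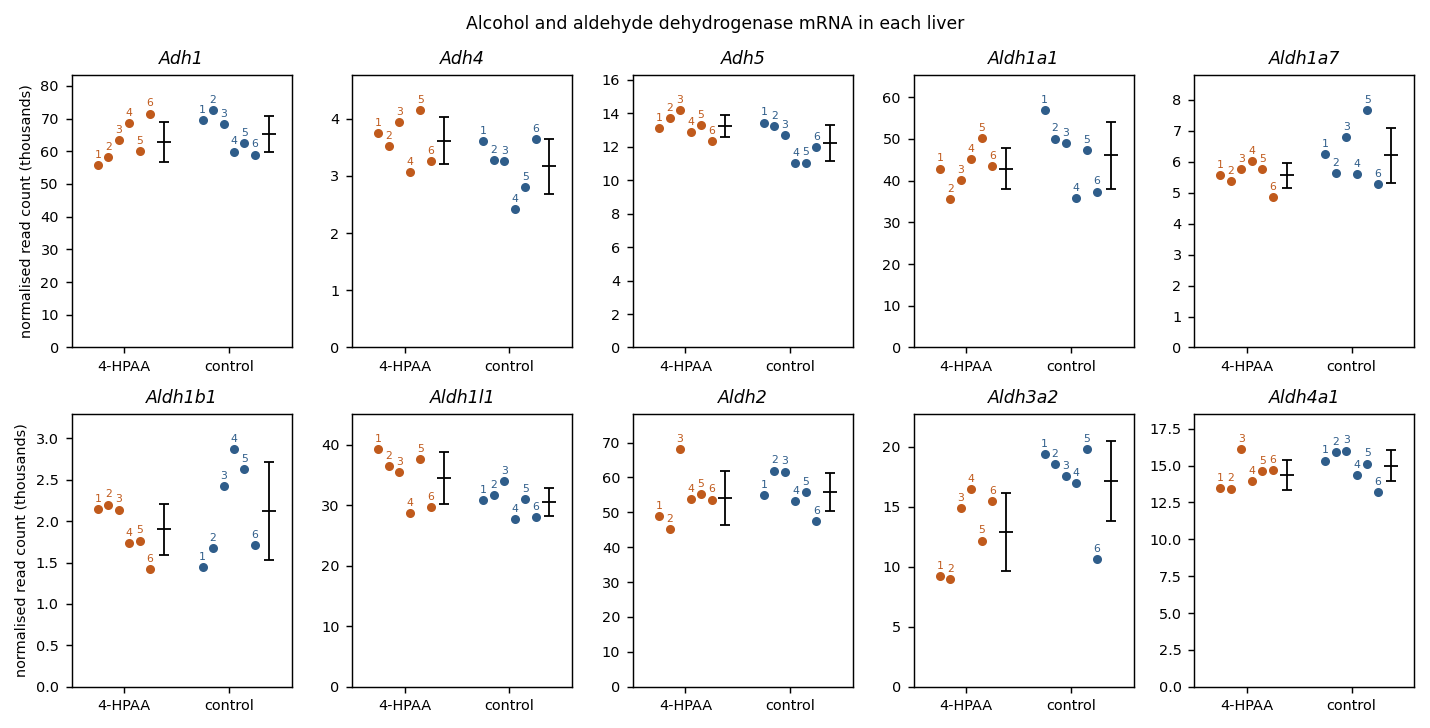
Normalised read count (axes from 0, scaled as labelled) of each of the 10 genes in each liver, 4-HPAA left of control, with replicate numbers beside the points and mean and SD to their right. The groups overlap in all 10 panels, and Aldh3a2 shows 4-HPAA replicates 1 and 2 and control replicate 6 near the bottom of its range.

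Aldh3a2 encodes fatty aldehyde dehydrogenase of the endoplasmic reticulum and peroxisome, the enzyme deficient in human Sjögren-Larsson syndrome, and it had the largest difference of the 10. Its normalised read counts in 4-HPAA replicates 1 to 6 were 9210, 8975, 14911, 16506, 12196 and 15500. In control replicates 1 to 6 they were 19388, 18572, 17589, 16985, 19791 and 10630. All 6 4-HPAA livers lay below the control median of 18080.5, and 4-HPAA replicates 1 and 2 lay below the lowest control liver. Control replicate 6 lay inside the 4-HPAA range, so that the groups overlapped. Aldh3a2 averaged 12883 ± 3266 with 4-HPAA and 17159 ± 3369 in control livers (SD, n = 6 each). The log2 difference with its SE was −0.43 ± 0.18, and its 95% interval ran from −0.82 to −0.03. The unadjusted limma p was 0.0369 and the Benjamini-Hochberg adjusted p 0.304, and the exact two-sided permutation test gave p = 0.0714 before adjustment. With 1 liver left out the difference ran from −0.56 (without control replicate 6, adjusted limma p of 0.138) to −0.33 (without 4-HPAA replicate 2, adjusted limma p of 0.51), and the unadjusted p was above 0.05 in 8 of the 12 such fits.

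The 3 genes outside the family whose profile over the 12 livers was nearest to that of Aldh3a2 were Ildr2, Pex11a and Gypc, with root mean square differences of 0.130, 0.141 and 0.156 in log2 units, where Aldh3a2 itself spread by 0.393 around its mean. Pex11a, a peroxisomal membrane protein involved in peroxisome division, had 2445 to 4159 normalised reads with 4-HPAA and 3058 to 5967 in control livers. Its log2 difference was −0.60 ± 0.17 with an adjusted limma p of 0.183. For Ildr2 and Gypc the log2 differences were −0.34 ± 0.22 and −0.42 ± 0.21, and neither passed. Since likeness was measured on the same 12 livers, the group difference is part of it.

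**Figure D3:**
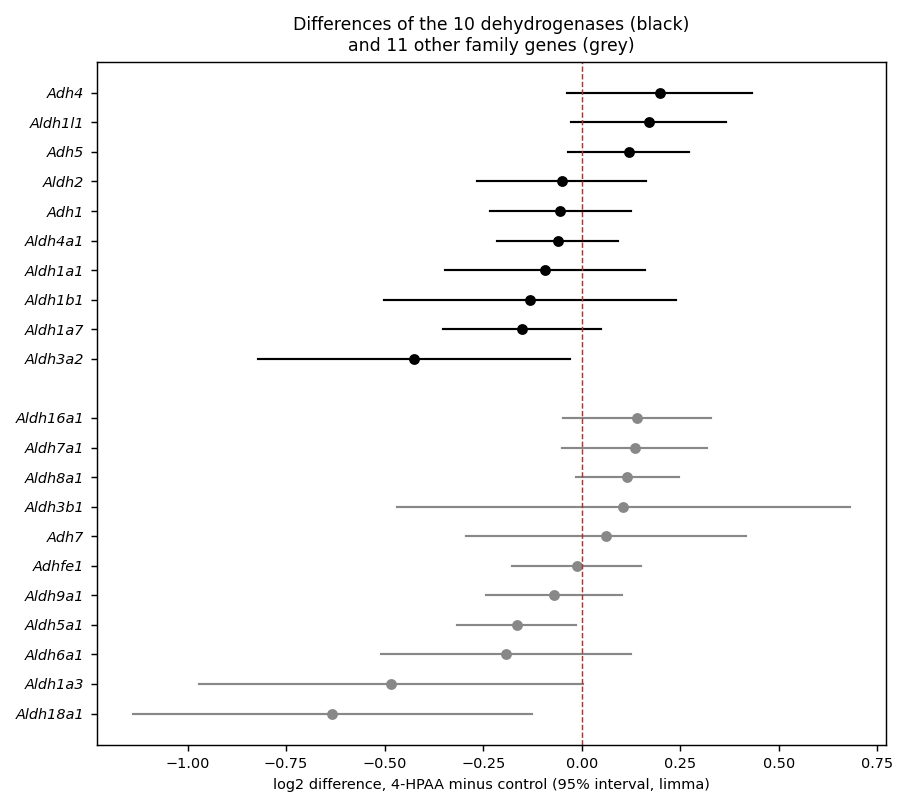
Log2 difference, 4-HPAA minus control, of the 10 dehydrogenases (black) and 11 other measured family genes (grey), with 95% intervals from limma on the horizontal axis and genes ordered by difference within each set. Among the 10, the interval of Aldh3a2 alone leaves out 0, and among the others those of Aldh5a1 and Aldh18a1 do.

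Adh1 had 55766, 61716 and 71539 normalised reads as lowest, median and highest value in 4-HPAA livers and 59007, 65389 and 72579 in control livers. Only 4-HPAA replicates 1 and 2 fell outside the control range, on its low side. The means were 62941 ± 6139 with 4-HPAA and 65313 ± 5609 in control livers, with a log2 difference of −0.05 ± 0.08 (95% interval −0.23 to 0.12, limma, adjusted p = 0.809). The nearest profiles outside the family were those of Hdgf, Pbld2 and Akr1c13, at root mean square differences of 0.0471, 0.0474 and 0.0593, where Adh1 spread by 0.123.

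Adh4, the class II enzyme of liver that takes longer alcohols and retinol, had 3061, 3629 and 4148 normalised reads as lowest, median and highest value with 4-HPAA and 2412, 3266 and 3638 in control livers. Replicates 1, 3 and 5 of the 4-HPAA group lay above every control liver, and control replicate 4 lay lowest of all. The means were 3611 ± 411 with 4-HPAA and 3164 ± 476 in control livers, a log2 difference of 0.20 ± 0.11 with an adjusted limma p of 0.419. Adh5, the class III enzyme that oxidises glutathione-bound formaldehyde and reduces S-nitrosoglutathione, had 12351, 13183.5 and 14186 with 4-HPAA and 11000, 12324.5 and 13438 in control livers. All 6 4-HPAA livers lay above the control median and 2 of them above the highest control liver, while control replicates 4 and 5 were lowest. Its means were 13248 ± 647 with 4-HPAA and 12226 ± 1061 in control livers, a log2 difference of 0.12 ± 0.07 with an adjusted limma p of 0.462.

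Because the alcohol dehydrogenases share a cluster, ratios within each liver were also taken, chosen after their values were seen. The Adh5 to Adh1 ratio had a median of 0.222 (0.173 to 0.236) with 4-HPAA and 0.185 (0.177 to 0.203) in control livers, with 4 of 6 4-HPAA livers above every control liver. Its log2 difference of 0.17 had an exact two-sided permutation p of 0.0606, or 0.303 after Benjamini-Hochberg adjustment over 5 ratios. The Adh4 to Adh1 ratio had medians of 0.0612 with 4-HPAA and 0.0464 in control livers, a log2 difference of 0.25 with an exact permutation p of 0.123 (adjusted 0.308). The ratios Adh4 to Adh5, Aldh1a7 to Aldh1a1 and Aldh1b1 to Aldh2 differed by 0.08, −0.06 and −0.08 on the log2 scale, and no adjusted exact permutation p was below 0.303.

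Aldh1l1, which splits formyltetrahydrofolate into tetrahydrofolate and carbon dioxide, was the aldehyde dehydrogenase with the largest positive difference. Its normalised read counts in 4-HPAA replicates 1 to 6 were 39186, 36381, 35415, 28617, 37600 and 29608. In control replicates 1 to 6 they were 30773, 31655, 33904, 27707, 30948 and 28038. Of the 4-HPAA livers, 4 lay above every control liver and 2, replicates 4 and 6, lay within the control range. The means were 34468 ± 4347 with 4-HPAA and 30504 ± 2326 in control livers, a log2 difference of 0.17 ± 0.09 (95% interval −0.03 to 0.37, limma, adjusted p = 0.408). Of the exonic bases of Aldh1l1, 499 (11.05%) are shared with the antisense gene Gm15756, which is not in the table. No label states if reads were assigned by strand.

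Aldh2 had 45112, 53674.5 and 68028 normalised reads as lowest, median and highest value with 4-HPAA and 47512, 55337.5 and 61962 in control livers. Both the highest liver (4-HPAA replicate 3) and the lowest liver (4-HPAA replicate 2) of all 12 carried 4-HPAA. Aldh2 averaged 54127 ± 7787 with 4-HPAA and 55821 ± 5462 in control livers, a log2 difference of −0.05 ± 0.10 with an adjusted limma p of 0.856. Aldh1b1 had 1422, 1951.5 and 2200 with 4-HPAA and 1445, 2063 and 2865 in control livers. Control replicates 3, 4 and 5 were the highest livers, control replicate 1 was among the lowest, and the groups overlapped. Aldh1b1 averaged 1899.8 ± 310.4 with 4-HPAA and 2123 ± 587 in control livers, and its log2 difference of −0.13 ± 0.17 had an adjusted limma p of 0.772 and a 95% interval of −0.50 to 0.24, the second widest among the 10 after that of Aldh3a2.

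Aldh1a1 had 35499, 43210.5 and 50242 normalised reads as lowest, median and highest value with 4-HPAA and 35858, 48227 and 56886 in control livers. Control replicates 4 and 6 lay with the low 4-HPAA livers, and control replicate 1 was highest of all. Aldh1a1 averaged 42889 ± 4938 with 4-HPAA and 46101 ± 8043 in control livers, a log2 difference of −0.09 ± 0.12 with an adjusted limma p of 0.761. Aldh1a7, a rodent relative of Aldh1a1, had 4859, 5657.5 and 6017 with 4-HPAA and 5283, 5946.5 and 7666 in control livers. Of its 4-HPAA livers, 6 of 6 lay below control replicates 1, 3 and 5, and replicate 6 lay below every control liver. Aldh1a7 averaged 5555 ± 401 with 4-HPAA and 6207 ± 896 in control livers, a log2 difference of −0.15 ± 0.09 with an adjusted limma p of 0.474.

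Aldh4a1, the mitochondrial pyrroline carboxylate dehydrogenase that completes proline and hydroxyproline breakdown to glutamate and its hydroxylated counterpart, had 13436, 14272.5 and 16094 normalised reads as lowest, median and highest value with 4-HPAA and 13210, 15241.5 and 16008 in control livers. Control replicate 6 was lowest of all and 4-HPAA replicate 3 highest of all. The means were 14372 ± 1000 with 4-HPAA and 14997 ± 1057 in control livers, with a log2 difference of −0.06 ± 0.07 (limma, adjusted p = 0.739). Of its exonic bases, 1595 (32.5%) are also annotated to the overlapping gene Gm21969 on the same strand, which is not in the table.

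**Figure D4:**
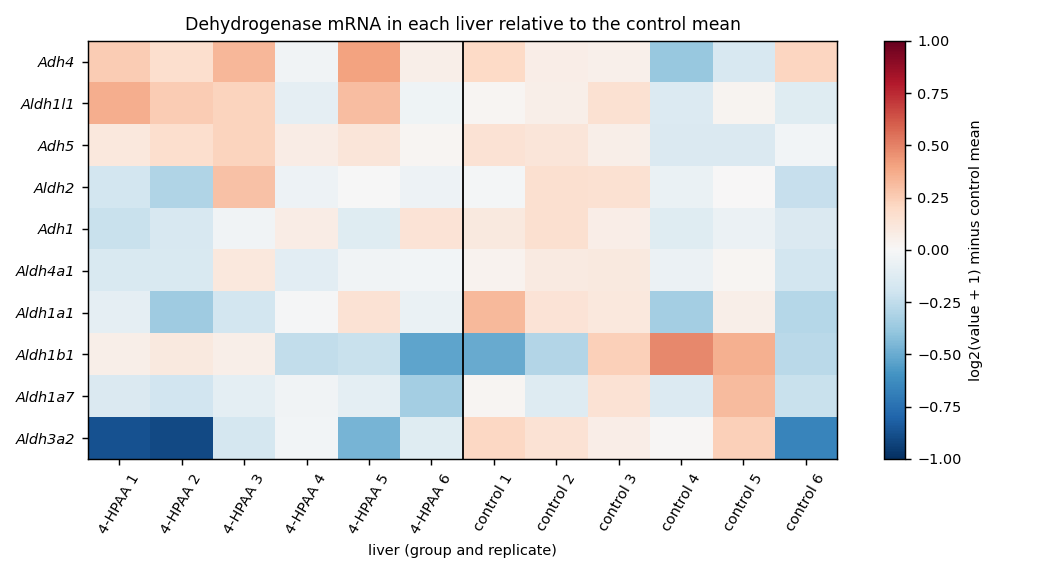
Log2 normalised read count of each dehydrogenase in each liver minus the mean of the control livers (colour, red above and blue below), with 6 4-HPAA livers left of the line and 6 control livers right of it and genes ordered by group difference. Aldh3a2 is darkest blue in 4-HPAA replicates 1 and 2 and in control replicate 6.

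Some members varied together from liver to liver. After the group means were removed, 32 of 45 pairs of the 10 genes had a positive Pearson correlation over the 12 livers, and 1 pair passed adjustment over the 45. The positive share was 71.1% among the members and 49.7% over all pairs of tested genes. The 45 pairs share 10 genes and are not independent, and the members are all more abundant than most tested genes. The pair that passed was Aldh2 and Aldh4a1, both enzymes of the mitochondrial matrix encoded on different chromosomes, with r = 0.941 (two-sided permutation p = 3e-05, adjusted 0.00135) and Spearman rho = 0.874 (permutation p = 0.0004, adjusted 0.018). Without 4-HPAA replicates 2 and 3, the livers farthest from the median of Aldh2, r was 0.948. Over all pairs of tested genes, 0.0941% had an r at least this pair's. Within the 6 4-HPAA livers r was 0.953 (exact permutation p = 0.00694) and within the 6 control livers 0.966 (exact permutation p = 0.00556).

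Adh1 and Aldh3a2 had r = 0.771 (permutation p = 0.00275, adjusted 0.0619) and rho = 0.797 (permutation p = 0.00271, adjusted 0.061), with 0.787 after the 2 livers farthest on Adh1 were left out. Within groups r was 0.902 in 4-HPAA livers (exact permutation p = 0.0236) and 0.602 in control livers (exact permutation p = 0.157). The neighbouring genes Adh4 and Adh5 had r = 0.720 (permutation p = 0.00892, adjusted 0.0896) and rho = 0.636 (permutation p = 0.0299, adjusted 0.260), with 0.617 after 4-HPAA replicate 4 and control replicate 4 were left out. Within groups r was 0.600 in 4-HPAA livers (exact permutation p = 0.21) and 0.776 in control livers (exact permutation p = 0.0639). For Aldh3a2 and Aldh4a1, r was 0.734 (permutation p = 0.00597, adjusted 0.0895) and rho 0.594 (permutation p = 0.0461, adjusted 0.260). Without 4-HPAA replicate 2 and control replicate 6 r was 0.442, so this relation rests on those livers. The pair Aldh2 and Aldh3a2 had r = 0.704 (permutation p = 0.00996, adjusted 0.0896) and rho = 0.566 (permutation p = 0.0595, adjusted 0.260). With 4-HPAA replicates 2 and 3 left out, but control replicate 6 kept, r of that pair was 0.679.

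**Figure D5:**
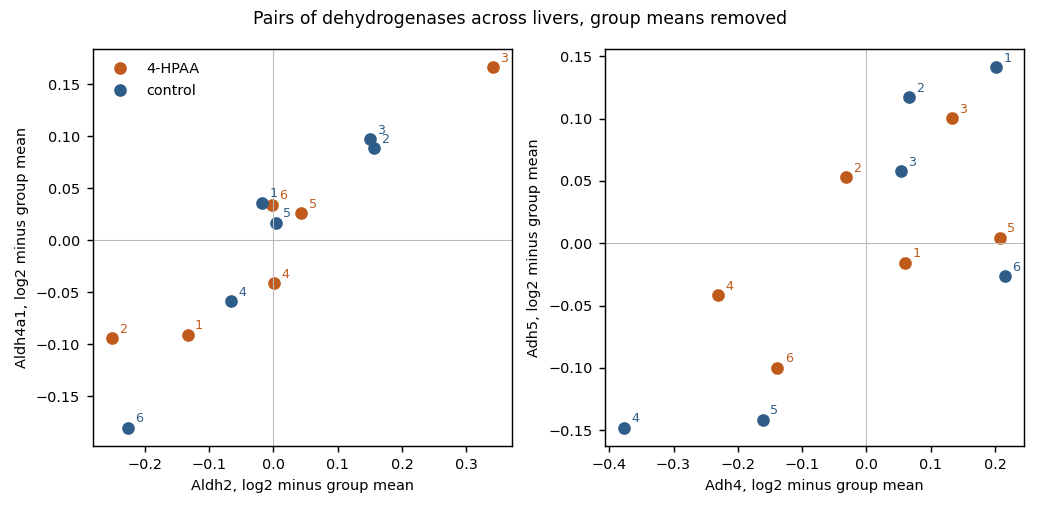
Log2 normalised read count minus the group mean in each of the 12 livers (numbers are replicates), Aldh2 against Aldh4a1 on the left and Adh4 against Adh5 on the right. The points of Aldh2 and Aldh4a1 lie close to a line in both groups (r = 0.941), and those of Adh4 and Adh5 scatter more (r = 0.720).

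Of 18 other alcohol and aldehyde dehydrogenase genes looked up, 12 were in the table and 11 were tested. With 4-HPAA, 5 were higher and 6 lower on average, and none passed the adjusted limma threshold. At an unadjusted limma p under 0.05, 2 were called, both lower (18.2%). Of all genes tested, 14.8% were called, 7.56% of them all as lower, so the total share was near the background. Aldh5a1, succinate semialdehyde dehydrogenase of GABA breakdown, had 1322, 1385 and 1540 normalised reads as lowest, median and highest value with 4-HPAA and 1369, 1616.5 and 1687 in control livers, a log2 difference of −0.16 ± 0.07 with an adjusted limma p of 0.298. Control replicate 6 was again the low control liver, and the groups overlapped. Aldh18a1, which makes pyrroline carboxylate from glutamate and so runs opposite to Aldh4a1, was scarce, with 9 to 19 normalised reads with 4-HPAA and 14 to 30 in control livers. Its log2 difference was −0.63 ± 0.24 with an adjusted limma p of 0.239.

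Aldh8a1, an enzyme of kynurenine breakdown, had 8420 to 9169 normalised reads with 4-HPAA and 7727 to 8749 in control livers, with 4 of 6 4-HPAA livers above every control liver and a log2 difference of 0.12 ± 0.06 (limma, adjusted p = 0.397). Aldh6a1, methylmalonate semialdehyde dehydrogenase of valine breakdown, had a log2 difference of −0.19 ± 0.15 in which 1 liver stood apart. Its value was 5910 in 4-HPAA replicate 3, against 10616 to 12351 in the other 4-HPAA livers and 10732 to 13174 in control livers, and without that liver the difference was −0.038. Aldh7a1, of lysine breakdown, was 0.13 ± 0.09 higher on the log2 scale, and there 4-HPAA replicate 3 was the highest 4-HPAA liver with 19587. The remaining tested genes had log2 differences of 0.14 ± 0.09 (Aldh16a1), 0.11 ± 0.27 (Aldh3b1), 0.06 ± 0.17 (Adh7), −0.01 ± 0.08 (Adhfe1), −0.07 ± 0.08 (Aldh9a1) and −0.48 ± 0.23 (Aldh1a3). The direction of Aldh3b1, Adh7 and Adhfe1 turned with single livers left out. Aldh1a2, the retinaldehyde dehydrogenase typical of stellate and mesothelial cells, was listed at 2 to 9 with 4-HPAA and 2 to 8 in control livers and was not tested.

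The pathways that feed or drain these enzymes were read from gene lists, and no gene of any list passed the adjusted limma threshold. Fatty aldehyde sources and partners, the surroundings of Aldh3a2, held 15 tested genes with 6 higher and 9 lower. At an unadjusted p under 0.05, 1 was higher and 2 lower (20% in all, beside 14.8% of all genes), and the median log2 difference was −0.10. Cyp4a14, a fatty acid omega-hydroxylase induced through PPAR alpha, had 623, 2601.5 and 18942 normalised reads as lowest, median and highest value with 4-HPAA and 2616, 14939 and 19376 in control livers. Control replicate 6 held the low control value, as for Aldh3a2, while 4-HPAA replicate 6 was as high as the controls. Its log2 difference was −2.07 ± 0.83 with an adjusted limma p of 0.278. Cyp4a10, named after its values were seen, had a median of 4011 normalised reads with 4-HPAA and 10931.5 in control livers, with an adjusted limma p of 0.361. Far1, which reduces fatty acyl-CoA to fatty alcohol, differed by −0.78 ± 0.36, or by −0.42 without 4-HPAA replicate 3, which had 13 normalised reads. Cyp4f14, another omega-hydroxylase, differed by 0.33 ± 0.11 (limma, adjusted p = 0.206).

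Retinol and retinoic acid handling, upstream of Aldh1a1 and beside Adh1, had 20 tested genes, 7 higher and 13 lower, with 1 higher and 5 lower at an unadjusted p under 0.05 (30%, beside 14.8% of all genes). Rdh16, a microsomal retinol dehydrogenase, had 1879, 2231.5 and 3328 normalised reads as lowest, median and highest value with 4-HPAA and 2420, 3983 and 4931 in control livers. In 4 of 6 4-HPAA livers it was below every control liver, and control replicate 6 was the lowest control. The log2 difference was −0.70 ± 0.19 with an adjusted limma p of 0.161. Rdh11 and Rdh14, retinal reductases, differed by −0.74 ± 0.23 and −0.29 ± 0.09 (limma, adjusted p = 0.197 and 0.200). Lrat, a stellate cell gene that stands in this list, differed by −0.10 ± 0.33, with 140 to 551 normalised reads with 4-HPAA and 145 to 499 in control livers.

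Other routes for ethanol, aldehydes and acetate had 8 tested genes, 3 higher and 5 lower, with 1 in each direction at an unadjusted p under 0.05 (25%, beside 14.8% of all genes). Aox3, an aldehyde oxidase of mouse liver, had 13146, 17763 and 19689 normalised reads as lowest, median and highest value with 4-HPAA and 11068, 13515.5 and 15356 in control livers, with 4 of 6 4-HPAA livers above every control liver. Its log2 difference was 0.36 ± 0.12 with an adjusted limma p of 0.200. Acss2, which turns acetate into acetyl-CoA, had 2956 to 5355 with 4-HPAA and 3438 to 8213 in control livers, a log2 difference of −0.57 ± 0.20 (limma, adjusted p = 0.218), and Aox1 differed by −0.17 ± 0.15. The ethanol-oxidising enzymes Cyp2e1 and Cat, named after their values were seen, had log2 differences of 0.07 ± 0.12 and 0.01 ± 0.08. Cyp2e1 averaged 260447 ± 27424 with 4-HPAA and 250435 ± 46819 in control livers. The direction of Cyp2e1 turned under sample weights, and that of Cat under equal library totals and without single livers.

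Aldo-keto and carbonyl reductases, which work in the opposite direction on aldehydes, had 18 tested genes, 4 higher and 14 lower. Their median log2 difference was −0.06, and 1 was lower at an unadjusted p under 0.05 (5.56%, beside 14.8% of all genes). That gene was Cbr4, a mitochondrial carbonyl reductase, at −0.18 ± 0.08 (limma, adjusted p = 0.279), with 5 of 6 4-HPAA livers below every control liver. Akr1b8 and Akr1b3 differed by −0.35 ± 0.20 and 0.29 ± 0.18. Folate enzymes, the setting of Aldh1l1, had 23 tested genes, 11 higher and 12 lower. At an unadjusted p under 0.05, 2 were higher (8.70%, beside 14.8% of all genes). These were Gart, of purine synthesis, at 0.20 ± 0.07 (882 to 1081 normalised reads with 4-HPAA and 823 to 963 in control livers), and Mthfd1, which supplies formyltetrahydrofolate, at 0.14 ± 0.07 (6057 to 7401 with 4-HPAA and 5533 to 6238 in control livers). Their adjusted limma p-values were 0.236 and 0.335. The mitochondrial Mthfd1l differed by −0.59 ± 0.29 at 35 to 66 normalised reads with 4-HPAA and 40 to 130 in control livers.

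Proline and hydroxyproline enzymes around Aldh4a1 had 15 tested genes, 11 higher and 4 lower, with a median log2 difference of 0.07. Only Aldh18a1 had an unadjusted p under 0.05 (6.67%, beside 14.8% of all genes). Prodh, the step before Aldh4a1, differed by 0.18 ± 0.09 (limma, adjusted p = 0.368) and Glud1, glutamate dehydrogenase, by 0.12 ± 0.07, with 4 of 6 4-HPAA livers above every control liver. Amine oxidases and phenol conjugation, a list that also held Ddc, had 9 tested genes. At an unadjusted p under 0.05, 1 was higher and 2 lower (33.3%, beside 14.8% of all genes). Ddc, aromatic amino acid decarboxylase, had 541, 986 and 1206 normalised reads as lowest, median and highest value with 4-HPAA and 529, 581.5 and 698 in control livers. In 5 of 6 4-HPAA livers it was above every control liver, with 4-HPAA replicate 4 the exception. The log2 difference was 0.60 ± 0.17 with an adjusted limma p of 0.171. Without 4-HPAA replicate 4, the low one, it was 0.75 with an adjusted limma p of 0.0169. In that fit 193 of all genes passed. Sult1a1, a phenol sulfotransferase, and Maoa, a monoamine oxidase, differed by −0.33 ± 0.12 and −0.35 ± 0.14 (limma, adjusted p = 0.237 and 0.261).

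Of 15 tested liver transcription factors, 4 were higher and 11 lower, with a median log2 difference of −0.12. Hnf4a and Stat5b, which regulate many hepatocyte genes, differed by 0.23 ± 0.13 and 0.17 ± 0.09, and neither passed the adjusted limma threshold.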

How the data were processed

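Per the labels' protocols, liver RNA was purified with RNeasy columns and made into directional TruSeq mRNA libraries for an Illumina NovaSeq. Tools in the submitters' processing notes, with no role or order given, are STAR, HTSeq, cutadapt, edgeR, FastQC 0.11.9 and DESeq2 1.28.1, and the build is GRCm38. The table the authors deposited holds whole numbers that were treated as a score. They are library-scaled, rounded read counts: some low whole numbers never occur in some columns, and median-of-ratios factors of the columns lie between 1.00 and 1.01. Count models were therefore not used, and the true number of reads per library is unknown. Of 13267 Ensembl transcript IDs, GENCODE M21 named 13203, and 0 columns belong to other samples. The smallest value is 2, so a gene lacking reads in some library may not be listed.

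A gene was tested if 6 of the 12 libraries or more had a value of 10 or more. The test was limma 3.58.1 under R 4.3.3 on log2(value + 1) with trended and robust empirical Bayes and no covariates, with Benjamini-Hochberg adjusted p below 0.05 as the threshold. Folds on this scale understate the change of low genes. The fit was tested on simulated data. No pair of libraries in a group differed by as little as sampling noise (smallest chi-square per gene 18.6 over 30 pairs). Correlations used 100000 permutations over all 12 livers after group means were removed, which can make their p-values somewhat too small. Exact tests between groups used all splits of 6 against 6, whose smallest two-sided p is 0.00216. Alternatives were other pseudocounts, filters, scalings and tests, sample weights, a replicate block and each library left out.

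The 10 members and all lists were chosen with earlier results of these data known. Named genes are the members, every measured family gene, the 3 of smallest p per list, and the 3 nearest profiles to the members of smallest p and highest level. Cyp2e1, Cat and Cyp4a10 were added after their values were seen. Not every gene the rule takes is reported here. Aldh18a1, Lrat, Ttr, Rxra and Hnf4a stand in 2 lists each. Promoters and starts are from RefSeq (GRCm38.p6), with all 10 members matched. Coding identity replaced a planned comparison of proteins. Figures used matplotlib 3.10.9 in Python 3.11.15, with scipy 1.17.1 and Biopython 1.88 for permutations and alignments.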

Additional observations from a re-analysis of the deposited data

Results flagged for a closer look

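In 12 of 106 groups of 6 livers examined (53 genes), 1 liver stood farther from its group than Dixon's 95% criterion allows. Chance gives about 1 in 20, a rate for independent groups. All 106 groups come from the same 12 livers and are not independent. Of the 12 cases, 6 fell in control replicate 6 and 4 in 4-HPAA replicate 3. The 6 genes named for a profile near Aldh3a2 or Adh1 are not independent of them, and without these 11 of 94 groups were concerned. Among the 10 dehydrogenases, 1 of 20 groups was concerned. Aldh3a2 was 10630 in control replicate 6, against 16985 to 19791 in the other control livers. Control replicate 6 was also the distant liver for Cyp4a14 (2616, against 13902 to 19376), Pex11a (3058, against 5250 to 5967, chosen for its likeness to Aldh3a2), Aldh5a1 (1369, against 1573 to 1687), Akr1b3 (243, against 112 to 148) and Gart (963, against 823 to 869).

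The liver of 4-HPAA replicate 3 was distant for Aldh6a1 (5910, against 10616 to 12351 in the other 4-HPAA livers), Aldh7a1 (19587, against 14857 to 16474), Mthfd1 (7401, against 6057 to 6496) and Cat (64745, against 77248 to 84337). The same liver stood apart on the second principal component of all tested genes, at −56.4 against −7.52 to 17.0 in the other 11 livers. Adhfe1 was 3254 in control replicate 1, against 2730 to 2840, and Aldh1a3 was 24 in control replicate 3, against 15 to 18. What set these livers apart was not tested.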

How the results depend on the processing

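The 10 dehydrogenases had the same direction and side of the adjusted threshold in 230 of 230 values over 23 alternatives, but their sizes moved. With 1 liver left out, log2 differences ran from −0.093 to −0.021 (Adh1), 0.12 to 0.24 (Adh4), 0.089 to 0.15 (Adh5), −0.16 to −0.029 (Aldh1a1), −0.20 to −0.088 (Aldh1a7), −0.23 to −0.034 (Aldh1b1), 0.13 to 0.22 (Aldh1l1), −0.12 to −0.00017 (Aldh2) and −0.097 to −0.042 (Aldh4a1). Over 58 named values and ratios, 1260 of 1278 were unchanged in this sense, 16 reversed and 2 passed the threshold. Over all genes, calls past adjusted p numbered 0 with limma as reported, 139 with sample weights, 11 with the replicate block and 0 to 193 with 1 liver left out (193 without 4-HPAA replicate 4, 5 without control replicate 1). Members at an unadjusted p under 0.05 numbered 1 as reported, 0 with the replicate block, 0 by the exact permutation test and 0 to 3 with 1 liver left out. The numbers do not pair the livers: same-numbered livers' deviations correlated at 0.210, −0.0726, 0.244, 0.282, −0.00652 and −0.183. Aldh3a2 ranged from −0.56 to −0.33, with adjusted p from 0.0806 to 0.538. Reversals concerned Adhfe1 (0.028 with sample weights, −0.059 to 0.025 with 1 liver left out), Adh7 (−0.038 to 0.16), Aldh3b1 (−0.074 to 0.24), Cyp2e1 (−0.012 with sample weights), Cat (−0.018 with equal totals, −0.013 to 0.064) and the Aldh1b1 to Aldh2 ratio (−0.18 to 0.029, positive without control replicate 4). Ddc passed without 4-HPAA replicate 4, and Pex11a with sample weights (adjusted p = 0.0404). The cause was not tested.

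Per-length levels, as means over 12 livers, moved with the listed transcript's length to 82959 for Adh1, 13323 for Adh5, 41009 for Aldh1a1, 10739 for Aldh1l1, 88241 for Aldh2, 4860 for Aldh3a2 and 3545 for Aldh4a1, since shorter lengths divide the same value. On the principal transcript they were 42981, 7941 and 18870 for Adh1, Adh5 and Aldh1a1 and 14216, 4859.6 and 4342 for Aldh2, Aldh3a2 and Aldh4a1. Reads per library are unknown, values near 10 carry large counting error, and identical stretches of Aldh1a1 and Aldh1a7 leave the assignment of reads between them uncertain.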
